A study of Mus musculus with 23 samples.

Results

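The 7 genes Parm1, Tmem79, Ddo, Mtfp1, H2-Q10, Ntrk3 and P2rx5, whose known roles differ, were measured in fat pad next to mammary tumors. They were chosen by their levels in these libraries, as listed genes among those most steadily lower in obese mice under both antibodies and outside the usual lists of lipid genes. These 7 genes are a small part of the 47311 genes summed from the deposited transcripts, and all 7 passed the filter on low counts that left 19885 genes for testing. The rule set no numeric threshold, so no gene stood just inside or just outside one. Since the difference between obese and lean mice chose the genes, that difference is given as a description with no test. Their response to the antibody, their covariation between mice of one diet and the genes around them were not used in the choice.

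The 23 libraries came from 23 female C57BL/6J mice, 1 library each. The obese anti-PD-1 group (8 mice) and the obese IgG2a group (5 mice) ate a high-fat diet (60% of kcal) at ages 8 to 26 weeks. The lean anti-PD-1 group and the lean IgG2a group (5 mice each) ate a low-fat diet (10% of kcal) per their labels, while the treatment field describes high-fat food for lean samples too. All mice carried a tumor grown from 250000 luciferase-expressing E0771 cells, which derive from a mammary cancer of a mouse, placed in matrigel in mammary gland 4. The antibody, either anti-PD-1, an immune checkpoint blocker, or the IgG2a isotype control, was given at 200 µg a mouse, first on day 3 and then every 3 days to day 21. No group was free of tumor or of injected antibody. Each library held 49438121 to 77369057 estimated counts. Nothing in the labels says that the mice were housed or processed in separate batches, and p-values measure the spread between these mice.

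The tissue is a mixture, and a lower level can mean fewer cells of a type or less RNA per cell, which bulk libraries cannot tell apart. Fat cell markers were high in all groups, with summed levels of 6820 to 57800 CPM (counts scaled to library size) in obese anti-PD-1, 14000 to 40700 CPM in obese IgG2a, 22600 to 45000 CPM in lean anti-PD-1 and 22300 to 62300 CPM in lean IgG2a libraries. Transcripts of B cells, which are abundant in lymph nodes, split the libraries into those above and those below a mean of 4 log2 CPM: 2 of 8 obese anti-PD-1, 2 of 5 obese IgG2a, 3 of 5 lean anti-PD-1 and 4 of 5 lean IgG2a libraries were above it. One library, obese IgG2a 5, stood apart by a sum of 15740 CPM over 22 liver genes. In the other libraries that sum was at most 5700 CPM in obese anti-PD-1, 2675 CPM in obese IgG2a, 5256 CPM in lean anti-PD-1 and 6158 CPM in lean IgG2a mice.

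The members differ in what they are known to do. Parm1 encodes a mucin-like glycoprotein of the cell membrane, first described in the prostate of the rat. Tmem79 encodes mattrin, a membrane protein of the lamellar granules of epidermis, whose loss gives mice a leaky skin barrier. Ddo encodes D-aspartate oxidase, the peroxisomal flavoenzyme that breaks down D-aspartate. Mtfp1 encodes an inner-membrane protein that takes part in mitochondrial fission. H2-Q10 encodes a class I MHC heavy chain that is secreted and is known chiefly as a product of the liver. Ntrk3 encodes TrkC, the receptor for neurotrophin-3. P2rx5 encodes an ATP-gated cation channel that has been used in mice as a surface marker of brown and beige fat cells.

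All 7 are protein-coding genes and lie on 6 chromosomes of GRCm38. In the GENCODE annotation Parm1 (ENSMUSG00000034981) spans chr5:91517615-91626894 on the plus strand, Tmem79 (ENSMUSG00000001420) chr3:88328655-88336148 on the minus strand and Ddo (ENSMUSG00000063428) chr10:40630011-40681847 on the plus strand. Mtfp1 (ENSMUSG00000004748) spans chr11:4091480-4095445 on the minus strand and H2-Q10 (ENSMUSG00000067235) chr17:35470089-35474563 on the plus strand. Ntrk3 (ENSMUSG00000059146) spans chr7:78175959-78738012 on the minus strand and P2rx5 (ENSMUSG00000005950) chr11:73160421-73172685 on the plus strand. Only Mtfp1 and P2rx5 share a chromosome, and they lie far apart on it.

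RefSeq promoter windows (GRCm38.p6, the 250 bases before the start) were matched by symbol for 5 of the 7 genes, and the other 2, Ntrk3 and P2rx5, had no window here. The windows were searched on both strands for 5 short motifs. The nuclear receptor core motif AGGTCA was found in 3 of the 5 windows, those of H2-Q10, Ddo and Mtfp1, against 14% of 32817 windows of the same length. The TATA box TATAAA was found in 2 of 5 (12.4% of all windows), the CCAAT box CCAAT in 2 of 5 (33.8%), the E-box CACGTG in 1 of 5 (6.02%) and the GC box GGGCGG in 0 of 5 (32.7%). The TATA match of Tmem79 was the reverse complement at bases -246 to -241 from the start, while that of H2-Q10 lay at -28 to -23. In the windows of Tmem79 and Parm1, 71 and 85 bases lie in annotated exons of the gene itself. The 3 windows that hold the nuclear receptor core motif are shown on the gene's strand because that motif was shared by the most members, with every matched motif of the 5 in capitals; no matches overlapped. They lie at chr17:35469839-35470088 (plus strand), chr10:40629761-40630010 (plus strand) and chr11:4095432-4095681 (minus strand), and 14 bases of the last lie in an annotated exon of Mtfp1.
H2-Q10: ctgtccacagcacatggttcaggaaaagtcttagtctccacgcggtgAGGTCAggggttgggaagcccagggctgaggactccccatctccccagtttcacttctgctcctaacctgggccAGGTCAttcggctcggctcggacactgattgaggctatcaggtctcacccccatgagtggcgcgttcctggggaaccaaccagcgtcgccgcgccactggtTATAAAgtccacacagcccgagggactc
Ddo: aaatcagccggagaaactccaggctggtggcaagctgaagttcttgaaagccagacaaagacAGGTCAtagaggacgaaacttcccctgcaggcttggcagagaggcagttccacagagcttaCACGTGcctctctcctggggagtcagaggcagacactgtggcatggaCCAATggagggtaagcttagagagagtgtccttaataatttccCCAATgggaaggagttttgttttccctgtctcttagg
Mtfp1: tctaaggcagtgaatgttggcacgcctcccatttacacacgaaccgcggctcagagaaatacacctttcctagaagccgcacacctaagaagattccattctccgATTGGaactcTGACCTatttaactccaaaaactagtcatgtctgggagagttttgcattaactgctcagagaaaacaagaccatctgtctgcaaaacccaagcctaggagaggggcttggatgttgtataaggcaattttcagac
In H2-Q10 the capitals mark the nuclear receptor core motif at 2 places and the TATA box at bases -28 to -23 from the start. In Ddo they mark the nuclear receptor core motif, the E-box and, at 2 places, the CCAAT box. In Mtfp1 they mark the CCAAT box and the nuclear receptor core motif, both as the reverse complement. A match describes letters in a window and was not tested as a binding site.

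All 7 genes were lower in obese than in lean mice under both antibodies, and in each of them every obese library lay below every lean library. None was absent: the lowest level of any member in an obese library was 0.525 CPM, and no library held fewer than 35 estimated counts of any of them. Non-overlap under both antibodies held for 7 of 7 members and for 1.7% of the genes tested. Taken by antibody, non-overlap held for 4.42% of genes with IgG2a and 3.11% with anti-PD-1, and with the antibodies pooled for 1.32%. Of the genes tested, 2.19% were called lower (edgeR's quasi-likelihood test with Benjamini-Hochberg adjustment, adjusted p under 0.05) in both comparisons. No call is read for the members, since these comparisons chose them. With IgG2a 3.12% of genes were called lower and 2.69% higher in obese mice, and with anti-PD-1 4.85% were called lower and 5.2% higher. These shares are background to the choice of the genes, and nothing is read from the members' place in them.

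**Figure D1:**
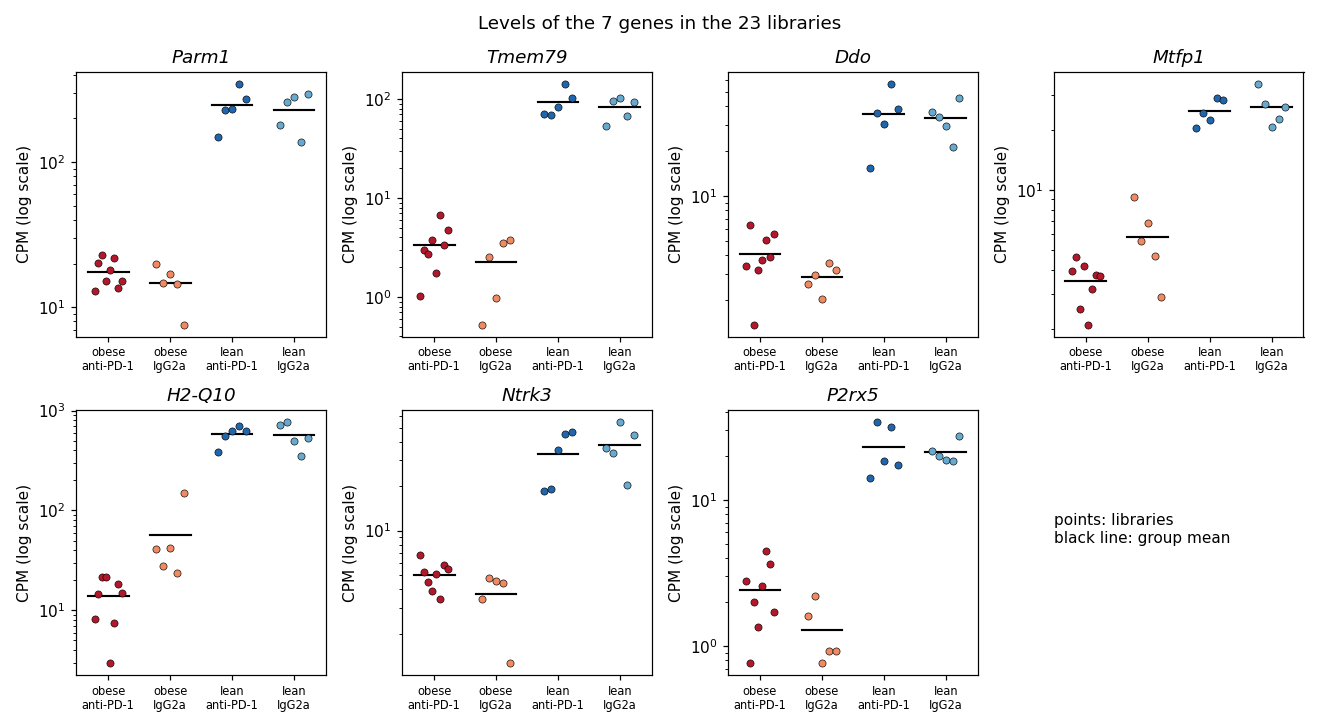
CPM (log scale) of the 7 genes in each of the 23 libraries, by group, with the group mean as a black line. In each panel every obese library lies below every lean library. For H2-Q10 the 8 obese anti-PD-1 libraries lie at or under 21.8 CPM, and the lowest of the 5 obese IgG2a libraries at 23.5 CPM.

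The members on the cell membrane come first. Parm1 had 12.9 to 22.9 CPM (median 16.7) in the 8 obese anti-PD-1 libraries, against 149, 229, 232, 345 and 274 CPM in the lean anti-PD-1 libraries. With the control antibody it had 19.7, 14.7, 16.8, 14.4 and 7.58 CPM in obese IgG2a libraries, against 181, 258, 282, 138 and 292 CPM in lean IgG2a libraries. The lowest lean library held 6.54 times the highest obese library with anti-PD-1 and 6.98 times with IgG2a. The log2 fold change of the fit, obese over lean, was -3.81 with anti-PD-1 and -3.97 with IgG2a (SE 0.241 and 0.292).

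Tmem79 had the lowest obese levels relative to lean of the 7 genes with IgG2a. It had 1.02 to 6.67 CPM (median 3.17) in obese anti-PD-1 libraries, against 70.9, 68.5, 82.9, 142 and 103 CPM in lean anti-PD-1 libraries. With the control antibody it had 0.525, 2.54, 0.970, 3.52 and 3.81 CPM in obese IgG2a libraries, against 53.7, 96.1, 102, 66.96 and 93.1 CPM in lean IgG2a libraries. The gap between the groups was wide, with the lowest lean library 10.3 times the highest obese one under anti-PD-1 and 14.1 times under IgG2a. The log2 fold change was -4.79 with anti-PD-1 and -5.18 with IgG2a (SE 0.432 and 0.536). With only the libraries of high B cell score the IgG2a value was -6.76, which rests on 2 obese IgG2a libraries, at 0.525 and 0.970 CPM.

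Tmem79 has 4 annotated transcripts, and the difference lay in 3 of them. Tmem79-203, one of the transcripts that carry the full coding sequence of 1173 bases, averaged 1.47 ± 1.56 CPM in obese anti-PD-1 and 0.833 ± 1.22 CPM in obese IgG2a libraries (SD, n = 8 and 5), against 44.1 ± 22 CPM in lean anti-PD-1 and 44.9 ± 10.2 CPM in lean IgG2a libraries (SD, n = 5 each). Tmem79-201 and Tmem79-202, with the same coding length, averaged between 0.054 and 0.987 CPM in the obese groups and between 13.9 and 26.1 CPM in the lean groups. The short Tmem79-204, with 502 coding bases, was at a low level in every group, with means of 0.865 CPM in obese anti-PD-1, 0.649 CPM in obese IgG2a, 0.393 CPM in lean anti-PD-1 and 1.62 CPM in lean IgG2a libraries. It made up a mean of 56.1% and 66.1% of the gene's TPM (a level per length and library) in obese anti-PD-1 and obese IgG2a libraries, against 1.84% and 6.85% in lean anti-PD-1 and lean IgG2a libraries. The split between transcripts is an estimate of the authors' quantification and rests on 66 to 344 counts of the gene in obese anti-PD-1 and 35 to 208 in obese IgG2a libraries.

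**Figure D2:**
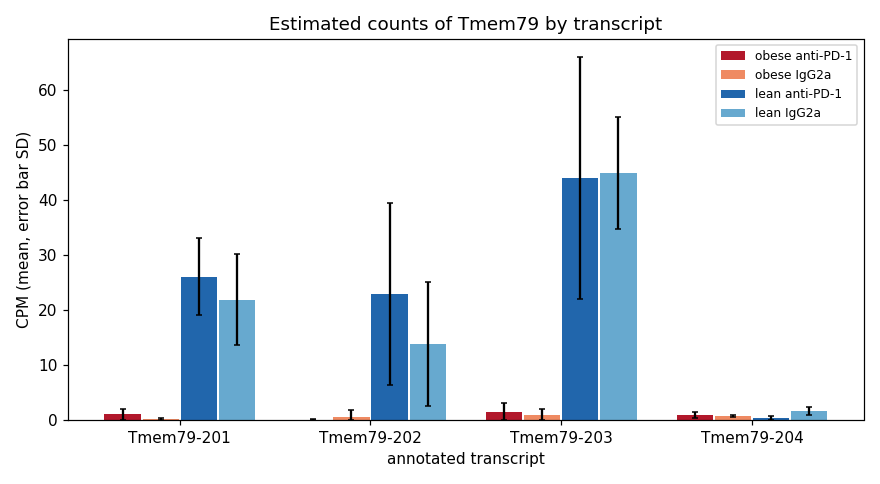
CPM of the 4 annotated transcripts of Tmem79 by group, as mean with SD as error bar on an axis that starts at 0. The transcripts 201, 202 and 203 average at least 13.9 CPM in the lean groups and at most 1.47 CPM in the obese groups, while Tmem79-204 stays at or under 1.62 CPM in all 4.

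Tmem79 shares 43.9% of its exonic bases with Glmp, a gene of a lysosomal membrane protein on the opposite strand, and the libraries were non-directional, so reads from the shared bases cannot be assigned by strand. Glmp averaged 76.2 ± 8.07 CPM in obese anti-PD-1, against 101 ± 10.5 CPM in lean anti-PD-1 libraries (log2 fold change -0.41, adjusted p = 0.0306, edgeR's quasi-likelihood test). With IgG2a it averaged 84.0 ± 8.19 CPM in obese, against 98.4 ± 13.3 CPM in lean libraries (-0.23, adjusted p = 0.372). The transcript Tmem79-204 has no base in an exon of Glmp, whereas 42.9% to 53.1% of the bases of the other transcripts lie in one. How the authors' program divided such reads was not tested.

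Ntrk3 had 3.45 to 6.82 CPM (median 5.16) in obese anti-PD-1 libraries, against 18.7, 19.01, 35.2, 45.3 and 46.9 CPM in lean anti-PD-1 libraries. With IgG2a it had 3.45, 4.76, 4.57, 4.43 and 1.26 CPM in obese libraries, against 36.4, 33.6, 54.4, 20.3 and 44.6 CPM in lean libraries. The receptor was lower in every obese library, by a log2 fold change of -2.71 with anti-PD-1 and -3.36 with IgG2a (SE 0.297 and 0.362). Of its 20 listed transcripts, Ntrk3-202, whose coding sequence of 1836 bases is shorter than the 2475 bases of Ntrk3-201, held the largest part. It made up 55.4% ± 25.8 and 51.4% ± 24.9 of the gene's TPM in obese anti-PD-1 and obese IgG2a libraries, against 63.9% ± 23.8 and 60.4% ± 14.2 in lean anti-PD-1 and lean IgG2a libraries (SD, n = 8, 5, 5 and 5). Those shares overlapped between the diets. Ntrk3-201 held 4.64%, 3.66%, 3.70% and 4.15% in the same order of groups.

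P2rx5 was the least abundant member. It had 0.769 to 4.46 CPM (median 2.29) in obese anti-PD-1 libraries, against 14.1, 33.9, 18.3, 31.5 and 17.3 CPM in lean anti-PD-1 libraries. With IgG2a it had 1.60, 2.19, 0.773, 0.936 and 0.934 CPM in obese libraries, against 21.5, 19.9, 18.8, 18.4 and 27.4 CPM in lean libraries. Obese over lean, the log2 fold change was -3.25 with anti-PD-1 and -4.04 with IgG2a (SE 0.351 and 0.435). In each lean and obese group P2rx5-201 held 100% of the gene's TPM after rounding.

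The proteins of peroxisomes and mitochondria follow. Ddo had 1.36 to 6.35 CPM (median 3.80) in obese anti-PD-1 libraries, against 15.4, 36.1, 30.4, 56.3 and 38.0 CPM in lean anti-PD-1 libraries. With IgG2a it had 2.55, 2.95, 2.04, 3.56 and 3.17 CPM in obese libraries, against 36.6, 33.7, 29.2, 21.4 and 45.3 CPM in lean libraries. The lean anti-PD-1 group was the more spread, with a coefficient of variation of 41.8%, and its lowest library still held 2.42 times the highest obese one. On the log2 scale the fitted difference was -3.12 with anti-PD-1 and -3.54 with IgG2a (SE 0.302 and 0.367). Only 1 of the 7 annotated transcripts of Ddo is listed in the deposited files.

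Mtfp1 had the smallest obese-to-lean difference of the 7 genes with IgG2a. It had 2.11 to 4.64 CPM (median 3.74) in obese anti-PD-1 libraries, against 20.6, 24.4, 22.6, 29.1 and 28.4 CPM in lean anti-PD-1 libraries. With IgG2a it had 9.28, 5.55, 6.88, 4.66 and 2.91 CPM in obese libraries, against 34.2, 27.0, 20.8, 22.7 and 26.1 CPM in lean libraries. Its log2 fold change was -2.83 with anti-PD-1 and -2.16 with IgG2a (SE 0.234 and 0.270). The IgG2a value was -1.72 with only the libraries of high B cell score and -2.62 with only those of low score. The first rests on 2 obese and 4 lean IgG2a libraries, the second on 3 obese and 1 lean. Mtfp1 and P2rx5 share no stretch of 31 bases with another gene's transcripts.

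H2-Q10 was the most abundant member in lean mice, and the most variable one in obese IgG2a mice with a coefficient of variation of 91.9%. It had 2.97 to 21.8 CPM (median 14.8) in obese anti-PD-1 libraries, against 382, 554, 623, 706 and 622 CPM in lean anti-PD-1 libraries. With IgG2a it had 40.8, 27.9, 41.9, 23.5 and 148 CPM in obese libraries, against 710, 766, 492.9, 353 and 528 CPM in lean libraries. The highest of these obese values, 148 CPM, is that of obese IgG2a 5, the library of high liver genes. The log2 fold change was -5.39 with anti-PD-1 and -3.34 with IgG2a (SE 0.466 and 0.518), and the IgG2a value was -4.05 without that library.

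The coding transcript H2-Q10-201 held 87.1% ± 8.79 and 95.8% ± 2.38 of the gene's TPM in obese anti-PD-1 and obese IgG2a libraries, against 98.9% ± 0.239 and 98.5% ± 0.486 in lean anti-PD-1 and lean IgG2a libraries (SD, n = 8, 5, 5 and 5). The rest was H2-Q10-203, a transcript that retains an intron. As shares of estimated counts H2-Q10-201 held 68.9%, 87.4%, 96.3% and 95.3% in the same order, since H2-Q10-203 is the longer. Of the stretches of 31 bases in the H2-Q10 transcripts, 30.3% occur in other genes, with 21.9% in H2-Q7 alone, so its reads could in part be divided with other class I genes. H2-Q7 averaged 178, 220, 286 and 287 CPM in the obese anti-PD-1, obese IgG2a, lean anti-PD-1 and lean IgG2a groups and was not called in either comparison (adjusted p = 0.596 with anti-PD-1 and 0.878 with IgG2a, edgeR).

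Per length, in TPM, the order of the genes was close to the same in both lean groups. H2-Q10 averaged 415 and 396 TPM in lean anti-PD-1 and lean IgG2a mice, above Parm1 at 45.6 and 42.8 TPM. Tmem79, at 44.2 and 41.1 TPM, overlapped with Parm1 in range. Mtfp1 followed at 19.5 and 20.0 TPM. Ddo at 11.3 and 10.7 TPM, Ntrk3 at 10.5 and 10.7 TPM and P2rx5 at 9.66 and 8.77 TPM overlapped with each other. In obese mice H2-Q10 remained highest by mean, at 10.8 and 52.3 TPM in obese anti-PD-1 and obese IgG2a libraries, and P2rx5 lowest, at 1.46 and 0.686 TPM. Between them Parm1 (4.73 and 3.34 TPM), Mtfp1 (3.89 and 5.40 TPM) and Tmem79 (3.79 and 2.59 TPM) overlapped in range.

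The antibody comparison asks whether checkpoint blockade moved the genes, and was not used to choose them. In obese mice H2-Q10 was the only member called, and it was lower with anti-PD-1. It averaged 13.8 ± 6.94 CPM in obese anti-PD-1 libraries (n = 8), against 56.4 ± 51.9 CPM in obese IgG2a libraries (n = 5). All 8 anti-PD-1 libraries, at most 21.8 CPM, lay below all 5 IgG2a libraries, at least 23.5 CPM. The gap was narrow, with the lowest IgG2a library 1.08 times the highest anti-PD-1 one. The share of all genes without overlap in this comparison was not counted, so nothing is read from it. The log2 fold change was -2.04 (SE 0.421, adjusted p = 0.0375, edgeR's quasi-likelihood test with Benjamini-Hochberg adjustment over 19885 genes). In that comparison 0.543% of the genes tested were called lower and 0.00503% higher.

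The H2-Q10 call did not hold without the library of high liver genes. Without obese IgG2a 5 the obese IgG2a mean was 33.5 ± 9.20 CPM (n = 4) and the log2 fold change was -1.29 (adjusted p = 0.514, edgeR). It was also lost without obese anti-PD-1 1, 2, 5, 6, 7 or 8, obese IgG2a 2, lean anti-PD-1 3, or lean IgG2a 1, 2, 3, 4 or 5, with adjusted p between 0.0515 and 0.514 over the 14 fits in all and log2 fold changes of -2.19 to -1.29. Of the 22 liver genes, 11 were called lower and none higher with anti-PD-1 in obese mice, with a median log2 fold change of -7.90, and without obese IgG2a 5 no gene was called in this comparison (0 of all genes tested). Alb, the gene of serum albumin, averaged 20.8 ± 9.37 CPM in obese anti-PD-1 libraries and 1300 ± 2830 CPM in obese IgG2a libraries (adjusted p = 0.0328). Among the libraries other than obese IgG2a 5, the 2 lowest liver sums, 436 and 1124 CPM, belonged to the obese anti-PD-1 libraries with the 2 highest H2-Q10 levels of that group, 21.8 and 21.7 CPM. These libraries, obese anti-PD-1 3 and 4, were also the 2 of that group above the B cell cut, with scores of 8.12 and 7.335. Their fat cell marker sums, 6823 and 19680 CPM, were the lowest of the group. With diet, 12 liver genes were higher in obese mice with IgG2a, and 1 was higher and 2 were lower with anti-PD-1. With IgG2a the median log2 fold change of the 22 genes was 8.44. The median liver sum ran the other way, at 2360 CPM in obese and 4570 CPM in lean IgG2a libraries. The 4 obese IgG2a libraries other than 5 had 2049 to 2675 CPM. The sum is led by its most abundant genes: in obese anti-PD-1 libraries it averaged 2860 CPM, of which Alb gave 20.8 CPM. How much of the sum came from liver cells was not tested. The part of liver RNA in the H2-Q10 difference was not tested.

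**Figure D3:**
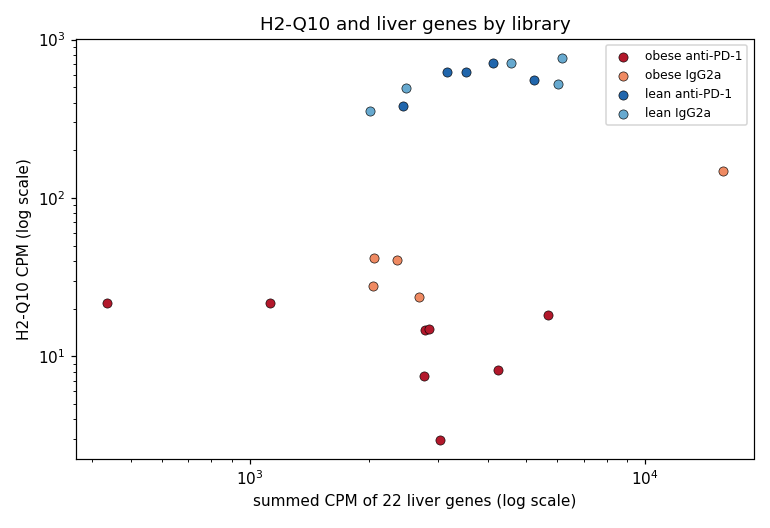
H2-Q10 level against the summed CPM of 22 liver genes in each of the 23 libraries, both on log scales. Obese IgG2a 5 lies at 15740 and 148 CPM, apart from the other obese libraries, and lean libraries with liver sums between 2016 and 6158 CPM have 353 to 766 CPM of H2-Q10.

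The other 6 members were not called with the antibody in obese mice. Mtfp1 averaged 3.51 ± 0.849 CPM with anti-PD-1 and 5.85 ± 2.40 CPM with IgG2a, a log2 fold change of -0.74 (SE 0.231, adjusted p = 0.146, edgeR). P2rx5 averaged 2.41 ± 1.22 CPM with anti-PD-1 and 1.29 ± 0.597 CPM with IgG2a, a log2 fold change of 0.90 (SE 0.360, adjusted p = 0.273, edgeR). Parm1, Tmem79, Ddo and Ntrk3 had log2 fold changes of 0.26, 0.57, 0.51 and 0.45, with adjusted p between 0.469 and 0.687. In lean mice the 7 log2 fold changes lay between -0.20 and 0.18, each with an adjusted p of 1.0. No gene was called in lean mice (0.0% of genes, with 472 at an unadjusted p under 0.05, 0 by edgeR with DESeq2 size factors and 22 by DESeq2) or in the average over both diets (0.0%, with 1293, 0 and 25). The difference of the antibody effect between the diets, obese minus lean, was -2.06 for H2-Q10 (SE 0.637, adjusted p = 0.421, edgeR) and between -0.67 and 0.78 for the others, and was called for none of the 7. It equals the difference of the obesity effect between the antibodies, and both obesity effects entered the choice. It is therefore not independent of the choice, and nothing is concluded from the lack of a call.

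**Figure D4:**
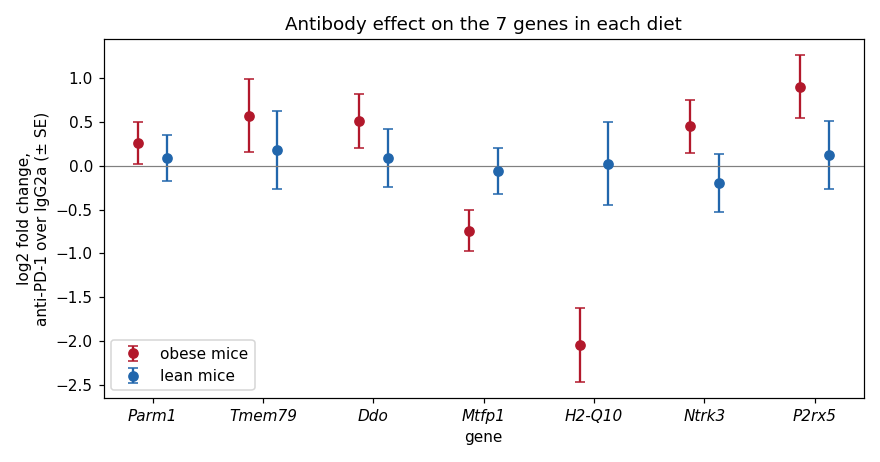
Log2 fold change of anti-PD-1 over IgG2a for each gene in obese and in lean mice, with SE as error bar. H2-Q10 in obese mice, at -2.04, is the value farthest from 0, and the lean values lie between -0.20 and 0.18.

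Covariation between mice of one diet was not used in the choice, but the choice favoured genes with low levels in obese libraries. Counts in obese IgG2a libraries were 35 to 208 for Tmem79 and 1258 to 8093 for H2-Q10. In lean IgG2a libraries they were 2825 to 6533 and 23683 to 52066. The part of the lower counts in the obese r was not tested. After subtracting the mean of each group, the 21 pairs of members had a median Pearson r of 0.57 in lean mice (0.04 to 0.83, n = 10 libraries) and 21 of 21 pairs positive. In obese mice the median was -0.04 (-0.56 to 0.52, n = 13), and 8 of 21 pairs were positive. No pair passed the adjusted threshold in either diet (permutation within antibody groups, 100000 resamples, two-sided, adjusted over 21 pairs), while 9 lean pairs and 0 obese pairs had an unadjusted p under 0.05. The pairs share genes and libraries and so are not independent, and the difference between the diets was not tested. Pairs of other genes were not looked at in the same way, so these r are not read as particular to the 7 genes.

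The closest lean pairs each included Parm1. Parm1 and Tmem79 had r = 0.83 (rho = 0.85, permutation p = 0.0071 and 0.00734, adjusted p = 0.0518 and 0.0941) in the 10 lean libraries, and r was 0.96 without the 2 libraries farthest from the median of Parm1. Parm1 and Ntrk3 had r = 0.83 (rho = 0.76, permutation p = 0.00323 and 0.0200, adjusted p = 0.0518 and 0.105), and 0.60 without those 2. Parm1 and Ddo had r = 0.83 (rho = 0.66, permutation p = 0.0074 and 0.0541, adjusted p = 0.0518 and 0.227), and 0.50 without them. In obese mice the same pairs had r = -0.29, 0.40 and -0.24. Among lean pairs with an unadjusted p under 0.05, Ddo with H2-Q10 fell to r = 0.22 without the farthest 2 libraries, against 0.76 with all 10, and Ddo with Ntrk3 to 0.22, against 0.66.

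**Figure D5:**
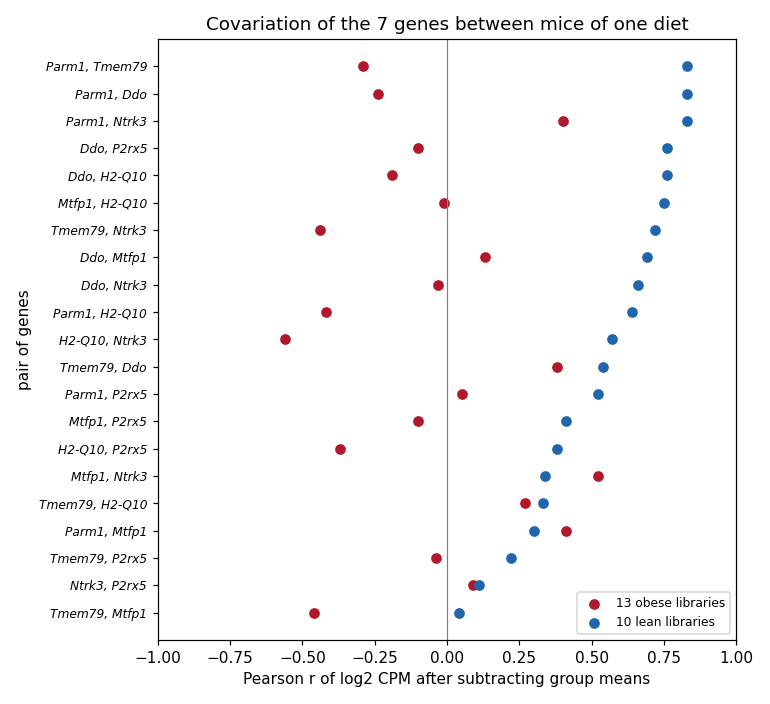
Pearson r of log2 CPM, after subtracting group means, for each of the 21 pairs in 13 obese and 10 lean libraries. The lean values all lie above 0, between 0.04 and 0.83, and the obese values spread on both sides of 0, between -0.56 and 0.52.

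B cell transcripts varied between the lean libraries as well. The count of pairs past the adjusted threshold in lean mice was 3 with DESeq2 size factors, 2 after removing the B cell score and 4 without lean IgG2a 1. Lean anti-PD-1 1 and lean IgG2a 4 had 2345 and 1780 CPM of B cell transcripts, the highest of their groups. Both also had the lowest Parm1, Ddo, H2-Q10, Ntrk3 and P2rx5 levels of their groups. For Mtfp1 this held with anti-PD-1 only, and for Tmem79 in neither group. Their fat cell marker sums, 22620 and 22280 CPM, were likewise the lowest of their groups. So were their fatty acid synthesis sums, 53790 and 52220 CPM. The part of B cell RNA or of fat cell RNA in the covariation was not tested.

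For each member the genes whose group-centred level was most like its own over the 23 libraries were named, among 11839 genes with a mean of at least 4 CPM, as a description with no p. H2-Q10 followed Serpinc1, the gene of antithrombin (r = 0.81), Cyp2f2, a cytochrome P450 (0.79), and Gnmt, glycine N-methyltransferase (0.79). Serpinc1 and Gnmt are known as liver genes. With IgG2a their log2 fold changes, obese over lean, were 2.96 and 5.68, and that of Cyp2f2 was -2.01, beside -3.34 for H2-Q10. With anti-PD-1 Serpinc1, Gnmt and Cyp2f2 had -0.37, -1.6 and -2.66, beside -5.39 for H2-Q10. Obese IgG2a 5, high in liver genes and in H2-Q10, is among the 23 libraries, and its part in these r was not tested. Mtfp1 followed Mrps14, a protein of the mitochondrial ribosome, Sdhb, a subunit of succinate dehydrogenase, and S100a1, a calcium-binding protein (r = 0.89 each). Ddo followed Zdhhc1 (r = 0.89), Ift46 (0.87) and Zfp219 (0.87). Ntrk3 followed Ube2d-ps (0.78), Zfp14 (0.77) and Emcn, the endothelial sialomucin endomucin (0.76). Parm1 followed Folr2, a folate receptor (0.69), Ccdc69 (0.65) and Vipas39 (0.64), Tmem79 followed Ccdc162 (0.78), Muc16, a membrane mucin (0.77), and Steap2, a metalloreductase (0.77), and P2rx5 followed Ptgr1 (0.76), Pno1 (0.75) and Tmem167 (0.74). Libraries share depth and tissue mixture, which enter every such r.

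The relatives of each member are read beside all genes tested, of which 1034 were higher and 965 lower in obese mice with anti-PD-1, and 534 were higher and 620 lower with IgG2a. Around Ntrk3, 16 other neurotrophin receptors, ligands and partners were tested. In obese mice 1 was lower with IgG2a and 2 were lower and 1 higher with anti-PD-1, and the list's median log2 fold change was 0.35 with anti-PD-1 and 0.0 with IgG2a, beside 0.08 and 0.12 over all genes. Sorcs2, a sorting receptor that binds proneurotrophins, fell under both antibodies: it averaged 3.20 ± 2.30 CPM in obese anti-PD-1, against 47.3 ± 21.8 CPM in lean anti-PD-1 libraries (log2 fold change -3.88, SE 0.545, adjusted p = 9.7e-05, edgeR), and 3.10 ± 2.88 CPM in obese IgG2a, against 44.6 ± 11.6 CPM in lean IgG2a libraries (-3.85, SE 0.657, adjusted p = 0.00122). Ntrk2, the sister receptor of BDNF, averaged 315 and 194 CPM in the obese anti-PD-1 and obese IgG2a groups and 174 and 217 CPM in the lean anti-PD-1 and lean IgG2a groups and was not called. The neurotrophin Ntf5 was lower and the adaptor Frs2 higher with anti-PD-1 alone, both named after their values were seen.

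Around P2rx5, 16 other purine receptors and nucleotide-handling genes were tested, of which 1 was higher and 1 lower in obese mice with anti-PD-1 and 1 was lower with IgG2a, and the median log2 fold change was -0.04 with anti-PD-1 and 0.51 with IgG2a. P2rx6, a sister P2X subunit, fell under both antibodies, to 3.15 ± 1.14 CPM in obese anti-PD-1, against 11 ± 3.45 CPM in lean anti-PD-1 libraries (-1.81, SE 0.352, adjusted p = 0.00224, edgeR), and to 1.75 ± 1.02 CPM in obese IgG2a, against 8.64 ± 1.74 CPM in lean IgG2a libraries (-2.31, SE 0.417, adjusted p = 0.00206). The most abundant of the channels in counts, P2rx4, had log2 fold changes of -0.25 under both antibodies and was not called. P2ry1, a receptor for ADP, was higher in obese mice with anti-PD-1 alone, and was named after its value was seen.

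Around Ddo, 14 other genes of D-amino acid and aspartate handling were tested, of which 1 was lower in obese mice with anti-PD-1 and 2 were higher and 1 lower with IgG2a, with a median log2 fold change of -0.20 with anti-PD-1 and 0.11 with IgG2a. Aspg, an asparaginase, fell under both antibodies: it averaged 0.776 ± 0.496 CPM in obese anti-PD-1, against 47.2 ± 37.8 CPM in lean anti-PD-1 libraries (-5.93, SE 0.909, adjusted p = 0.000264, edgeR), and 2.10 ± 3.53 CPM in obese IgG2a, against 39.6 ± 12 CPM in lean IgG2a libraries (-4.24, SE 1.03, adjusted p = 0.0174). Srr, the racemase that makes D-serine, had log2 fold changes of -0.39 and -0.73 and was not called. Got2 and Slc25a13 were higher in obese mice with IgG2a, where Slc25a13 had an SD of 26.9 around a mean of 21.5 CPM, and both were named after their values were seen. Slc25a13 was the 1 gene of the list called with the antibody in obese mice, where it was lower (-2.91, adjusted p = 0.0449, edgeR), and no gene was called in that comparison without obese IgG2a 5.

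Around Mtfp1, 19 other genes of mitochondrial fission and fusion were tested, and only Mtfr1, a fission regulator, was called, lower in obese mice with anti-PD-1 (-0.67, SE 0.172, adjusted p = 0.0161, edgeR). The protease gene Oma1 came next by p, with -0.40 and an adjusted p of 0.0596. The core fission and fusion genes Dnm1l, Fis1, Mfn1, Mfn2 and Opa1 were not called in either comparison, and the list's median was -0.14 with anti-PD-1 and -0.25 with IgG2a. Around H2-Q10, 17 other class I genes were tested, of which 1 was higher and 3 were lower in obese mice with anti-PD-1 and 1 was lower with IgG2a. Mr1, which presents vitamin metabolites to T cells, fell under both antibodies, to 31 ± 9.62 CPM in obese anti-PD-1, against 61.7 ± 27.7 CPM in lean anti-PD-1 libraries (-0.99, SE 0.281, adjusted p = 0.0277, edgeR), and to 23.8 ± 8.66 CPM in obese IgG2a, against 54.3 ± 15.8 CPM in lean IgG2a libraries (-1.19, SE 0.322, adjusted p = 0.0308). H2-K1 and H2-D1, the classical chains, had log2 fold changes of -0.64 and -0.54 with anti-PD-1 and -0.38 each with IgG2a and were not called. With anti-PD-1 alone H2-Q2 and H2-T22 were called lower and H2-M5, listed at 0 in all lean anti-PD-1 libraries and averaging at most 0.193 CPM in the other groups, higher, all named after their values were seen.

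Around Tmem79, 13 epidermal barrier genes and partners were tested and none was called, with medians of -1.64 with anti-PD-1 and -1.53 with IgG2a. Krt10, a keratin of the upper epidermis, averaged 1.56 and 1.24 CPM in the obese anti-PD-1 and obese IgG2a groups, against 7.04 and 24.4 CPM in the lean anti-PD-1 and lean IgG2a groups (adjusted p = 0.189 with anti-PD-1 and 0.0546 with IgG2a, edgeR), and Spink5, a protease inhibitor of skin, at most 2.59 CPM in any group's mean (0.0610 and 0.0585). Wls and Usp8, genes of the Wnt secretion and receptor turnover machinery, had log2 fold changes between -0.01 and 0.49 and were not called. The epidermis marker sum ranged between 7.06 and 28.3 CPM in obese anti-PD-1, 8.14 and 19 CPM in obese IgG2a, 5.20 and 140 CPM in lean anti-PD-1 and 10.4 and 229 CPM in lean IgG2a libraries, with Flg2 and Dsc1 at 0 in all but the lean IgG2a group, while Tmem79 was at least 53.7 CPM in every lean library. Around Parm1, 15 other membrane mucins were tested, and Podxl2 was called, higher in obese mice with anti-PD-1 (1.93, SE 0.507, adjusted p = 0.0184, edgeR). Emcn came next by p, lower by -0.93 with IgG2a (adjusted p = 0.0832). The list's median was -0.62 with anti-PD-1 and -0.28 with IgG2a.

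Cell type markers that moved with diet are given beside the members. Of 15 markers of thermogenic fat cells, 10 were lower in obese mice with anti-PD-1 and 11 with IgG2a, with medians of -3.65 and -3.49. Their sum was 45.4 to 259 CPM in obese anti-PD-1 and 52.5 to 163 CPM in obese IgG2a, against 592 to 1160 CPM in lean anti-PD-1 and 387 to 2320 CPM in lean IgG2a libraries, and no marker was at 0 in a whole group. Ucp1, the uncoupling protein of brown fat, averaged 0.794 and 0.282 CPM in the obese anti-PD-1 and obese IgG2a groups, against 137 and 186 CPM in the lean anti-PD-1 and lean IgG2a groups, and Cidea 4.05 and 3.24 CPM, against 328 and 286 CPM. Of 18 fatty acid synthesis genes, 15 were lower with anti-PD-1 and 17 with IgG2a; Acly averaged 169 and 147 CPM in the obese anti-PD-1 and obese IgG2a groups, against 3960 and 3860 CPM in the lean anti-PD-1 and lean IgG2a groups, and Acaca 172 and 123 CPM, against 2830 and 3030 CPM. Of 16 markers of mammary duct epithelium, 12 were lower with anti-PD-1 and 4 with IgG2a, while 4 of 16 fat cell markers were lower under each antibody and 1 was higher with anti-PD-1. Of 13 skeletal muscle markers 9 were called lower with anti-PD-1 and 0 with IgG2a, and the lean anti-PD-1 level rests on 2 of 5 libraries. The summed muscle level was 12.1 to 80.9 CPM (median 48.3) in obese anti-PD-1 libraries, against 1219, 3677, 5.71, 5.14 and 3.31 CPM (median 5.71) in lean anti-PD-1 libraries, so that the other 3 lean libraries lay below all 8 obese ones. Of 12 macrophage markers 1 was higher in obese mice with anti-PD-1 and 3 with IgG2a, with medians of 0.39 and 0.80, and their sum was 458 to 1610 CPM in obese anti-PD-1, 663 to 2730 CPM in obese IgG2a, 479 to 1140 CPM in lean anti-PD-1 and 624 to 1190 CPM in lean IgG2a libraries. Of 11 smooth muscle and pericyte markers 2 were higher with anti-PD-1 and 1 was lower with IgG2a, with medians of 0.79 and 0.21, and their sum was 604 to 1840 CPM in obese anti-PD-1, 532 to 1370 CPM in obese IgG2a, 598 to 945 CPM in lean anti-PD-1 and 574 to 853 CPM in lean IgG2a libraries. No marker of B cells (10) or endothelium (10) was called with diet. None of the 14 nerve and Schwann cell genes tested was called with diet, and the sum of the list of 17, with Th and Dbh at 0 in every library, was 129 to 764 CPM in obese anti-PD-1, 135 to 356 CPM in obese IgG2a, 206 to 365 CPM in lean anti-PD-1 and 265 to 385 CPM in lean IgG2a libraries. The part of these cell types in the members' levels was not tested.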

How the data were processed

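Poly(A) RNA of tumor-adjacent mammary fat pad was sequenced from non-directional libraries of samples with an RNA integrity number above 5, per the labels. The authors deposited raw estimated counts and TPM (levels per length and library) for 115088 transcripts. The submitters' processing notes name GRCm38, edgeR and limma without versions. Which program estimated the counts is not given. Of the transcripts, 114200 matched GENCODE M21, and the 888 others held at most 0.208% of a library's counts. The deposited estimated counts were summed per gene, rounded, filtered (filterByExpr, minimum count 10, by group) and scaled by TMM. The model, edgeR 4.0.16 under R 4.3.3 (robust quasi-likelihood, two-sided), had 1 mean for each group and used all 23 libraries, and a gene was called at a Benjamini-Hochberg adjusted p under 0.05 over 19885 genes. CPM are TMM-scaled, and values after ± are SD. The deposited TPM were used for levels per length, for transcript shares (at least 10 counts of the gene) and, as log2(TPM + 1) with limma 3.58.1, as an alternative. Correlations used log2 CPM (prior count 2) less the group mean, with 100000 permutations within antibody groups. Library quality and depth set the precision, and estimated counts are not molecules.

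The 7 genes, the lists around them and the tests were chosen with earlier results of these data known, so counts in the lists are descriptions. Named genes are the members, their 3 most alike genes of at least 4 CPM, in each list of relatives those called the same way under both antibodies or else the 2 of smallest p, and up to the first 2 genes of marker lists; Ntrk2, P2rx4, Srr, Dnm1l, Fis1, Mfn1, Mfn2, Opa1, H2-K1, H2-D1, H2-Q7, Wls, Usp8 and Glmp were added after their values were seen. Alternatives were DESeq2 1.42.0 size factors or test, no filter, 1 CPM in 5 libraries, length offsets, only the groups compared, a B cell score as covariate or split at 4, libraries left out singly, and obese IgG2a 2 and 5 left out together. The fit and the correlation test were tested on simulated data.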

Additional observations from a re-analysis of the deposited data

Results flagged for a closer look

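H2-Q10 reached 148.1 CPM in obese IgG2a 5, while the other 4 libraries of that group held 23.5 to 41.9 CPM, and the gap set it apart from them by Dixon's test. The same library had a sum of 15740 CPM over 22 liver genes, against at most 2675 CPM in the other obese IgG2a libraries. The test was run on 28 sets of a gene and a group and marked 1, and chance alone marks about 1 set in 20. With that library the antibody effect on H2-Q10 in obese mice was -2.04 (adjusted p = 0.0375, edgeR), and without it -1.29 (adjusted p = 0.514). The part of liver RNA was not tested.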

How the results depend on the processing

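The obese-to-lean log2 fold change of each member stayed below 0 under all 34 alternatives in both comparisons. The members were chosen on that sign, so this lends it no support. The sizes moved: on log2(TPM + 1) with IgG2a they were -3.29 for Parm1, -3.64 for Tmem79 and -2.39 for Ddo. Those of Mtfp1, Ntrk3 and P2rx5 were -1.73, -2.16 and -2.55. Each of these was smaller in size than by edgeR, and H2-Q10 was at -3.35. With anti-PD-1 the same alternative gave -5.26 for H2-Q10 and -3.32 to -1.71 for the others. No paired analysis was possible because replicate numbers come from accession order alone. The count of genes called in obese against lean mice with IgG2a was 1154. It was 2075 by the DESeq2 test, 583 with only the groups compared, 2988 with the B cell score as covariate, 1895 or 255 with only libraries of high or low score, 293 without obese IgG2a 2 and 5, and 495 to 1662 with single libraries left out; leaving out obese IgG2a 2 or 5 or lean IgG2a 1, 2 or 5 gave 716, 549, 495, 545 and 559. With anti-PD-1 it was 1999, and 3117 by the DESeq2 test, 3600 on log2(TPM + 1), 574 with high scores only and 1108 to 2432 with single libraries left out, the lowest without lean anti-PD-1 4. Of the calls on log2(TPM + 1), 88.1% were higher in obese mice with anti-PD-1 and 63.7% with IgG2a, against 51.7% and 46.3% by edgeR; the median of all genes was then 0.27 and 0.19, against 0.08 and 0.12. With the DESeq2 test those shares were 59.4% and 56.4%.

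The 109 genes called with the antibody in obese mice (0.917% higher) became 400 by the DESeq2 test (11.8% higher), 70 with no filter, 49 with 1 CPM in 5 libraries, 70 with length offsets, 0 on log2(TPM + 1), 0 with only the groups compared, 609 with the B cell covariate, 0 or 767 with high or low scores only, 0 without obese IgG2a 2 and 5, and 0 to 643 with single libraries left out. It was 0 without obese anti-PD-1 1, 2, 5, 6 or 7, obese IgG2a 2 or 5, lean anti-PD-1 3 or lean IgG2a 1, 2, 3 or 4, 13 without obese anti-PD-1 8, 40 without lean IgG2a 5, and 228, 295, 208 and 643 without obese anti-PD-1 3 or obese IgG2a 1, 3 or 4. In lean mice 0 became 22 by the DESeq2 test, 1 with only the groups compared and 2 with low scores only; in the average over diets 0 became 25 by the DESeq2 test and 1 with low scores only. The 0 lean pairs of members past the threshold became 3 with DESeq2 size factors, 2 with the B cell score removed and 0 to 4 with single libraries left out, the highest without lean IgG2a 1. H2-Q10 lost its antibody call in obese mice on log2(TPM + 1) (-1.83, adjusted p = 0.210), with only the groups compared (-2.01, 0.274), with high scores only (-0.87, 0.685) and without obese IgG2a 2 and 5 (-1.36, 0.556), and in the other 7 such alternatives kept it with adjusted p between 0.000882 and 0.0495.

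Uncalled antibody effects in lean mice changed sign around 0. The turned values were -0.0012 with no filter and -0.12 with high scores for H2-Q10, -0.10 with the B cell covariate and -0.13 with high scores for Ddo, -0.065 and -0.26 for P2rx5, and -0.027 for Parm1 and 0.034 for Mtfp1 with low scores. With single libraries left out these effects ranged between -0.11 and 0.17 for H2-Q10, -0.16 and 0.28 for Ddo, -0.071 and 0.23 for Parm1, -0.063 and 0.27 for P2rx5, -0.14 and 0.047 for Mtfp1 and -0.03 and 0.28 for Tmem79. Averaged over diets, high scores only turned Ddo to -0.047 and Ntrk3 to -0.0051. The cause of these changes was not tested.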
